A study of Mus musculus with 36 samples.

Results

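miR-204 and miR-211 are a pair of related microRNAs (miRNAs), and their reads were followed through 36 small-RNA libraries of mouse kidney. The members were chosen by name, as the entries of the count table called mmu-miR-204-5p, mmu-miR-204-3p and mmu-miR-211-5p, where mmu stands for mouse. They are 3 of the 1915 mature miRNAs that the table lists, and all 3 had reads. Kidneys came from C57BL/6 mice of 3 ages, P1, P3 and P7, in days after birth. In the Pkd1 model, knockout (KO) mice were Pkd1f/f:HoxB7-Cre and wild-type (WT) littermates were Pkd1f/f without Cre. In the Pkd2 model, KO mice were Pkd2f/f:HoxB7-Cre and WT littermates were Pkd2f/f. All mice of a model thus carried the same floxed allele. HoxB7-Cre removes the gene in the collecting duct, and each library was made from total RNA of the whole kidney, so the RNA also came from cells outside the collecting duct. Each of the 12 groups held 3 libraries. Nothing in the labels ties a library to a separate animal, so p-values measured the spread between libraries, which may be partly technical. Less miRNA per cell and fewer cells that make it cannot be told apart in such bulk RNA.

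A miRNA is cut from a hairpin as a 5p and a 3p arm, of which one usually stays loaded in Argonaute and guides it to target mRNAs. The guide pairs with its targets mainly through bases 2 to 8, called the seed. miR-204 is known as a miRNA of epithelia, above all the retinal pigment epithelium and other parts of the eye, and miR-211 as a miRNA of pigment cells. They are held to be paralogs, each lying in an intron of a TRPM channel gene.

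The mature sequences of the 3 members are given first because reads of miR-204-5p and miR-211-5p had to be told apart by 1 base. They were taken from RefSeq on build GRCm38.p6, where all 3 members were matched by name, and capitals mark the seed.
miR-204-5p: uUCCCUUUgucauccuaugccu
miR-211-5p: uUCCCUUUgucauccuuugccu
miR-204-3p: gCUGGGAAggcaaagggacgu
The 5p arms were 22 bases long and identical at 21 positions. Counted from 1 at the 5′ end, the difference was A17U, with the base of miR-204-5p first. Their seeds were therefore the same, and the seed of miR-204-3p was another. Of 1679 mature sequences in the RefSeq table, 3 had the seed of miR-204-5p, and the third was miR-7670-3p. It was nearly unread, with 14 reads over all libraries and at most 2 in any of them. After miR-211-5p, the mature sequence nearest to miR-204-5p differed from it by 7 edits. The number of mismatches allowed when reads were assigned is not given in the sources used here. How many reads counted for miR-211-5p could be miR-204-5p reads with 1 error was not tested.

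The sequence of miR-204-5p lay at chr19:22750610-22750631 and that of miR-204-3p at chr19:22750649-22750669, both on the plus strand. Their hairpin overlapped the protein-coding gene Trpm3 on the same strand and none of its annotated exons, which places it in an intron. miR-211-5p lay at chr7:64205831-64205852 on the plus strand, in an intron of Trpm1. The other arm of that hairpin, miR-211-3p, was read 0 times in all 36 libraries. A count of 0 allowed up to 3 reads, or between 0.0593 and 0.471 counts per 1000000 reads (CPM) by library.

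The libraries held 12569939 to 32663566 reads assigned to miRNAs, with 1 entry kept for each mature miRNA. Between 31.4% and 81.0% of a library was miR-10a-5p or miR-10b-5p, so levels were given as CPM after TMM normalisation over all 36 libraries, which puts the libraries on 1 scale. The 5 nephron tubule miRNAs used to check the tissue summed to 22704 to 96928 CPM, and all were found in the table. One library, Pkd1 P1 WT replicate 1, stood apart in the 4 miRNAs of skeletal and heart muscle, which summed to 1539 CPM there and to 14.9 to 140 CPM in the others. Pkd2 P1 WT replicate 3 had 274 CPM of the liver miRNA miR-122-5p. Fold changes and interactions of miR-204-5p and miR-211-5p that rest on these libraries are given with and without them. Deletion of Pkd1 or Pkd2 could not be checked from these miRNA counts.

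The members differed in level by orders of magnitude. mmu-miR-204-5p had 2303 to 33843 reads per library, with a median of 571 CPM and a range of 361 to 1219.7 CPM. Its place among all miRNAs of a library, counted from the most abundant, ran from 57 to 93. mmu-miR-211-5p had 6 to 80 reads per library and a level of 0.836 to 4.26 CPM, with a median of 1.63 CPM. mmu-miR-204-3p had 0 to 36 reads, and in 13 libraries it did not exceed 3 reads. It passed the filter on low counts in the Pkd2 model but not in the Pkd1 model, where 2 of 18 libraries reached 10 reads.

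**Figure D1:**
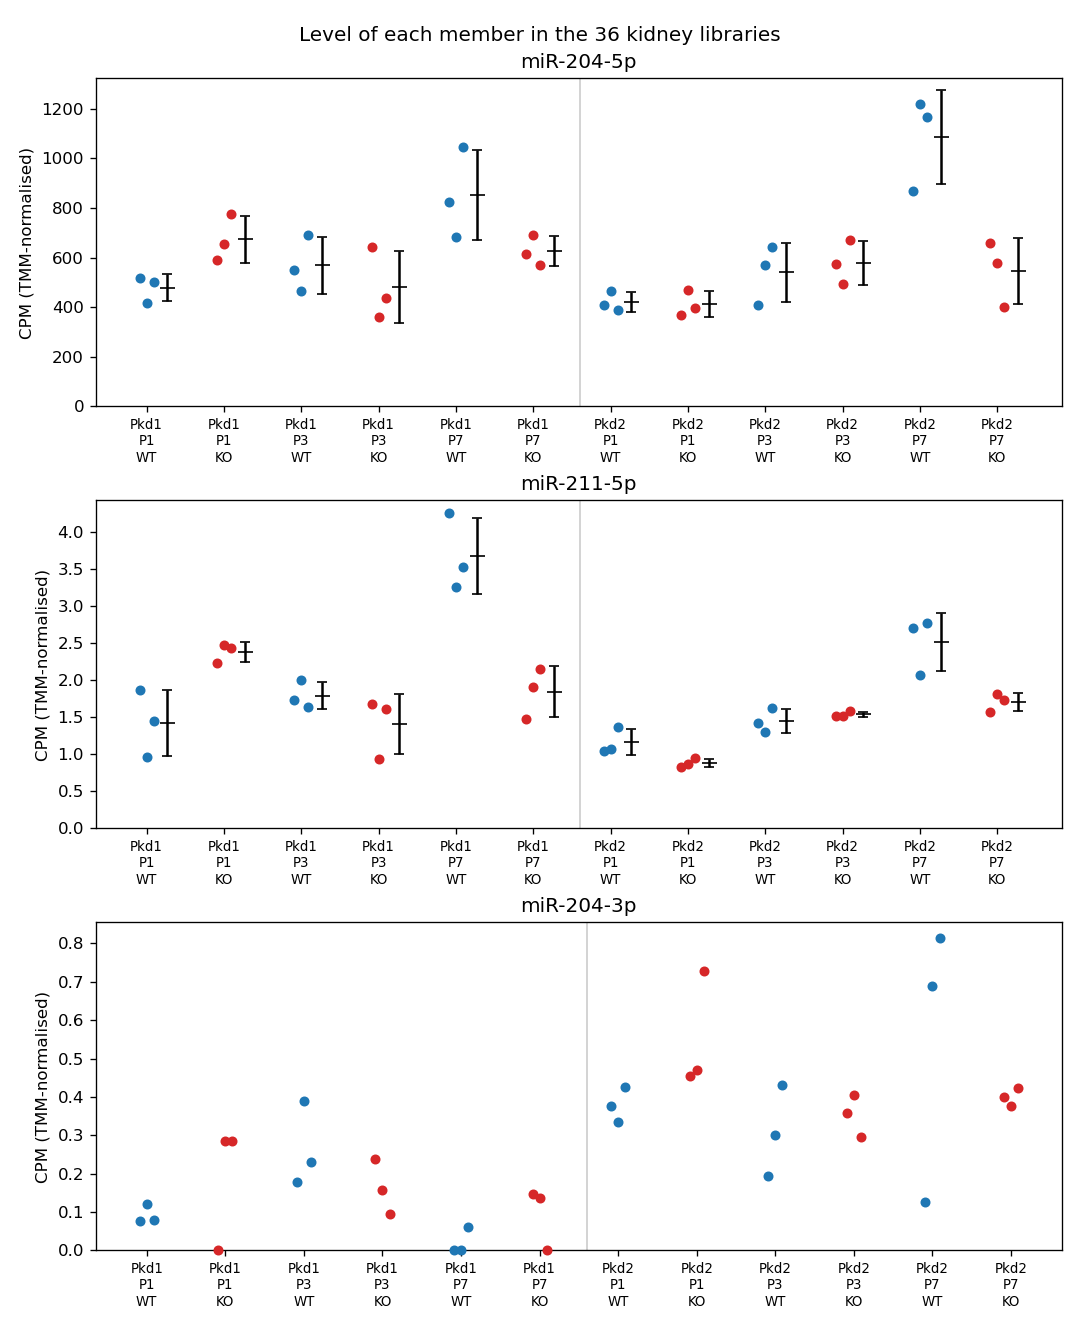
Level in CPM (linear axis, TMM-normalised over 36 libraries) of miR-204-5p, miR-211-5p and miR-204-3p in the 12 groups. Dots are libraries, blue for WT and red for KO, and black bars are the mean ± SD of 3 libraries, left out for miR-204-3p because of its few reads. The 2 highest group means of both 5p miRNAs are those of WT kidneys at P7, which are 851 and 1085 CPM for miR-204-5p.

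Ordered by mean level, miR-204-5p was lowest in Pkd2 P1 KO, at 412 ± 52.4 CPM (SD, n = 3), and in Pkd2 P1 WT, at 422 ± 39.3 CPM. The middle of the order, from 478 to 673 CPM, was held by Pkd1 P1 WT and KO, all 4 groups at P3 and both KO groups at P7. The highest groups were Pkd1 P7 WT, at 851 ± 181 CPM, and Pkd2 P7 WT, at 1085 ± 190 CPM. In none of the 11 steps of this order were all libraries of one group below all libraries of the next. miR-211-5p was also lowest in Pkd2 P1 KO, at 0.884 ± 0.0580 CPM, and highest in the 2 WT groups at P7. These had 2.52 ± 0.390 CPM (Pkd2 P7 WT) and 3.68 ± 0.518 CPM (Pkd1 P7 WT). Of the 11 steps, 3 separated the libraries: that above Pkd2 P1 KO, that above Pkd1 P7 KO and that above Pkd2 P7 WT.

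The first question was how the members moved between birth and P7 in kidneys without deletion. Both 5p miRNAs rose in WT kidneys of both models, by 1.88-fold to 2.67-fold. In WT kidneys of the Pkd1 model, miR-204-5p had 516, 417 and 502 CPM at P1, 550.2, 466 and 693 CPM at P3, and 825, 684 and 1044 CPM at P7. The 3 libraries at P7 were all above the 3 at P1, while P3 overlapped with both. P7 was higher than P1 by 0.91 on the log2 scale (SE 0.23, edgeR's quasi-likelihood test with Benjamini-Hochberg adjustment over 706 miRNAs, adjusted p = 0.0141). miR-211-5p had 1.86, 0.969 and 1.45 CPM at P1, 1.74, 1.999 and 1.64 CPM at P3, and 4.26, 3.25 and 3.53 CPM at P7. Again all P7 libraries were above all P1 libraries, and the difference was 1.42 (SE 0.28, edgeR adjusted p = 0.00411). Thus 2 of the 2 members tested rose, where 21.5% of all miRNAs tested were called and 10.3% were called higher. Libraries at P7 wholly above those at P1 were found for 14.6% of all miRNAs. Without Pkd1 P1 WT replicate 1, the library with muscle miRNAs, the differences were 0.96 (edgeR adjusted p = 0.0272) and 1.65 (edgeR adjusted p = 0.00570). Both calls were lost when the compared groups were fitted alone, at 0.88 and 1.39 (edgeR adjusted p = 0.0564 and 0.0632).

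In WT kidneys of the Pkd2 model, miR-204-5p had 410.5, 466 and 389 CPM at P1, 410.4, 569 and 641 CPM at P3, and 868, 1219.7 and 1167 CPM at P7. Each P7 library lay above every library of the earlier days. The difference between P7 and P1 was 1.28 on the log2 scale (SE 0.21, edgeR adjusted p = 0.000483). miR-211-5p had 1.05, 1.07 and 1.36 CPM at P1, 1.42, 1.31 and 1.62 CPM at P3, and 2.71, 2.07 and 2.77 CPM at P7. The P7 libraries were again clear of the earlier ones, with a difference of 1.04 from P1 (SE 0.20, edgeR adjusted p = 0.00153). miR-204-3p had 14, 14 and 19 reads at P1 and 2, 16 and 22 reads at P7, and its difference of 0.51 (SE 0.42) was not called (edgeR adjusted p = 0.406). So 2 of the 3 members tested rose, beside 28.3% of all miRNAs called, 11.4% called higher and 24.3% with P7 wholly above P1. Without Pkd2 P1 WT replicate 3, the library with the liver miRNA, the differences were 1.23 for miR-204-5p and 1.17 for miR-211-5p, both still called (edgeR adjusted p = 0.00427 and 0.00336).

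Scaling by library totals alone ended these calls. Under it the differences of miR-204-5p were 0.30 and 0.59 (edgeR adjusted p = 0.727 and 0.329) and those of miR-211-5p 0.68 and 0.31 (edgeR adjusted p = 0.418 and 0.563), for Pkd1 and Pkd2 mice. The median of all miRNAs then lay at -0.68 and -0.78, against -0.027 and -0.057 with TMM. Relative to that median, miR-204-5p was higher at P7 by 0.94 with TMM and 0.98 with library totals in Pkd1 mice, and by 1.34 and 1.38 in Pkd2 mice. Ranks within a library, which need no scaling, went the same way: miR-204-5p stood at places 82 to 86 at P1 and 58 to 69 at P7 in Pkd1 mice, and at 84 to 92 and 57 to 63 in Pkd2 mice.

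**Figure D2:**
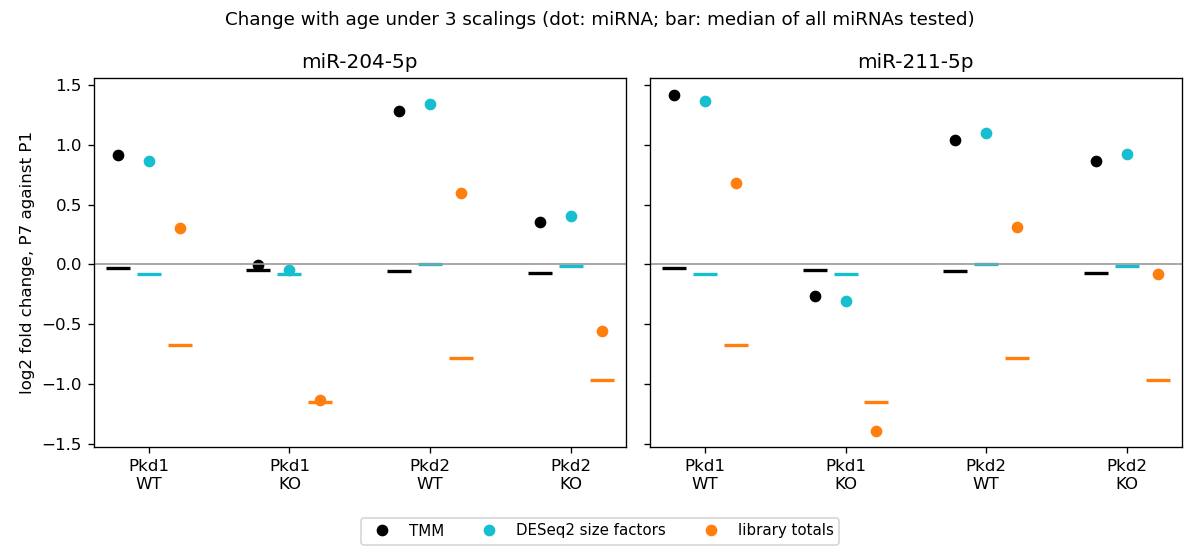
Log2 fold change of P7 against P1 (vertical axis) for miR-204-5p and miR-211-5p in WT and KO kidneys of each model, under 3 scalings. Dots are the miRNA and horizontal bars the median of all miRNAs tested, which falls to between -0.68 and -1.16 with library totals alone.

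In KO kidneys 1 rise, that of miR-211-5p in Pkd2 mice, passed the test, and whether KO differed from WT is given by the interaction further on. In KO kidneys of the Pkd1 model, miR-204-5p had 591, 653 and 775 CPM at P1, 641, 361 and 438 CPM at P3, and 616, 689 and 569 CPM at P7. P1 and P7 overlapped, and P7 differed from P1 by -0.0095 (SE 0.23, edgeR adjusted p = 0.981, 95% interval -0.49 to 0.47). miR-211-5p had 2.23, 2.47 and 2.44 CPM at P1, 1.69, 0.941 and 1.61 CPM at P3, and 1.47, 1.91 and 2.15 CPM at P7. Its P7 libraries lay below those of P1, as they did for 24.9% of all miRNAs, with a difference of -0.26 (SE 0.28, edgeR adjusted p = 0.544). By edgeR 0 of the 2 members tested passed the adjusted threshold and 0 passed it unadjusted, and DESeq2 called 0. Over all miRNAs these shares were 17.1% and 31.6% by edgeR.

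In KO kidneys of the Pkd2 model, miR-204-5p had 367, 469 and 398 CPM at P1, 573, 493 and 669 CPM at P3, and 657, 580 and 399.6 CPM at P7. One P7 library remained within the range of P1, and the difference was 0.35 (SE 0.21, edgeR adjusted p = 0.239, 95% interval -0.097 to 0.80). With the share of miR-10 reads as a covariate it was called, at 0.51 (edgeR adjusted p = 0.0291). miR-211-5p had 0.836, 0.868 and 0.949 CPM at P1, 1.52, 1.52 and 1.58 CPM at P3, and 1.58, 1.81 and 1.73 CPM at P7. All its libraries at P3 and P7 were above those at P1, and it rose by 0.87 (SE 0.21, edgeR adjusted p = 0.00761). This was 1 of 3 members tested, where 24.4% of all miRNAs were called and 15% had P7 wholly above P1. The call was lost with no filter on low counts (0.85, edgeR adjusted p = 0.0612) and in the fit of the compared groups alone (0.93, edgeR adjusted p = 0.0741). Under library totals alone the 2 differences turned, to -0.56 and -0.081, while the median of all miRNAs stood at -0.97.

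The second question was whether deletion changed the members at each age. At P1, both 5p miRNAs were higher in each KO library of the Pkd1 model than in any WT library. For miR-204-5p these were the 591 to 775 CPM against 417 to 516 CPM given above. The difference was 0.54 (SE 0.23, 95% interval 0.060 to 1.03), and it did not pass the adjustment (edgeR adjusted p = 0.532). For miR-211-5p the difference was 0.75 (SE 0.28, edgeR adjusted p = 0.440). Without the library with muscle miRNAs the differences were 0.59 and 0.99 (edgeR adjusted p = 0.394 and 0.326). With all libraries, both had an unadjusted p under 0.05, and DESeq2 called 0. Over all miRNAs tested, 7.65% had KO libraries wholly above WT, 8.36% had an unadjusted p under 0.05, and 0% passed the adjusted threshold. Pkd2 mice at P1 had overlapping levels of miR-204-5p, with a difference of 0.0096 (SE 0.21, 95% interval -0.44 to 0.46). miR-211-5p was lower there in each KO library than in any WT library, as 9.12% of all miRNAs were, by -0.34 (SE 0.21, edgeR adjusted p = 0.972). Without the library with the liver miRNA these differences were -0.046 for miR-204-5p and -0.20 for miR-211-5p, and edgeR called neither. miR-204-3p differed by 0.62 (SE 0.40, edgeR adjusted p = 0.972), from 19, 13 and 36 reads in KO and 14, 14 and 19 in WT. No member was called by edgeR or DESeq2 or had an unadjusted p under 0.05, while 0% of all miRNAs were called and 5.5% had such a p.

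At P3 the groups of both models overlapped for miR-204-5p and miR-211-5p. Between KO and WT of Pkd1 mice the differences were -0.22 (SE 0.23) and -0.25 (SE 0.27). Between those of Pkd2 mice they were 0.080 (SE 0.21) and 0.066 (SE 0.20), and 0.079 (SE 0.44) for miR-204-3p. No member was called by edgeR or DESeq2 or had an unadjusted p under 0.05, and 0% of all miRNAs were called in either model (edgeR), with such a p for 9.07% in Pkd1 and 1.47% in Pkd2. The 95% intervals for miR-204-5p ran from -0.70 to 0.26 in Pkd1 and from -0.37 to 0.53 in Pkd2.

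At P7, miR-204-5p fell in the Pkd2 model to 0.528 of its WT level. The WT libraries had 868, 1219.7 and 1167 CPM and the KO libraries 657, 580 and 399.6 CPM. Every KO library was below every WT library, and the difference was -0.92 (SE 0.21, 95% interval -1.37 to -0.47, edgeR adjusted p = 0.0159). Its place within the library was 57 to 63 in WT and 71 to 88 in KO. Of the 3 members tested, 1 was called, beside 12.6% of all miRNAs called and 3.62% called lower. The call was lost without Pkd2 P7 KO replicate 3, the lowest library, when the difference was -0.76 (edgeR adjusted p = 0.0801). It was also lost without WT replicate 2 or 3, at -0.89 in both cases (edgeR adjusted p = 0.0628 and 0.0558), and in the fit of the compared groups alone, at -0.89 (edgeR adjusted p = 0.0733). Library totals alone gave -0.93 (edgeR adjusted p = 0.304). Across all 14 alternatives the difference was between -1.08 and -0.76 and the call was kept in 9.

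miR-211-5p was lower in all KO libraries at P7 in both models. In Pkd1 mice it had 4.26, 3.25 and 3.53 CPM in WT and 1.47, 1.91 and 2.15 CPM in KO, a difference of -0.92 (SE 0.29, 95% interval -1.53 to -0.32). This did not pass the adjustment (edgeR adjusted p = 0.159). Pkd2 mice had 2.71, 2.07 and 2.77 CPM in WT and 1.58, 1.81 and 1.73 CPM in KO, a difference of -0.51 (SE 0.20, edgeR adjusted p = 0.107). KO libraries wholly below WT were found for 10.2% of all miRNAs tested in Pkd1 mice and 12.1% in Pkd2 mice, so separation of the groups was not rare at this age.

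Levels of miR-204-5p overlapped between genotypes in Pkd1 mice at P7, with 825, 684 and 1044 CPM in WT and 616, 689 and 569 CPM in KO. One KO library was above the lowest WT library, and the difference of -0.38 (SE 0.23, 95% interval -0.86 to 0.11) was not called (edgeR adjusted p = 0.641). No member was called there by edgeR or DESeq2, 1 had an unadjusted p under 0.05, as did 10.2% of all miRNAs, and 0.425% of all miRNAs were called. miR-204-3p had at most 2 reads in any library of these 2 groups. In Pkd2 mice it had 2, 16 and 22 reads in WT and 14, 5 and 12 in KO, and its difference was -0.43 (SE 0.44, edgeR adjusted p = 0.566).

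**Figure D3:**
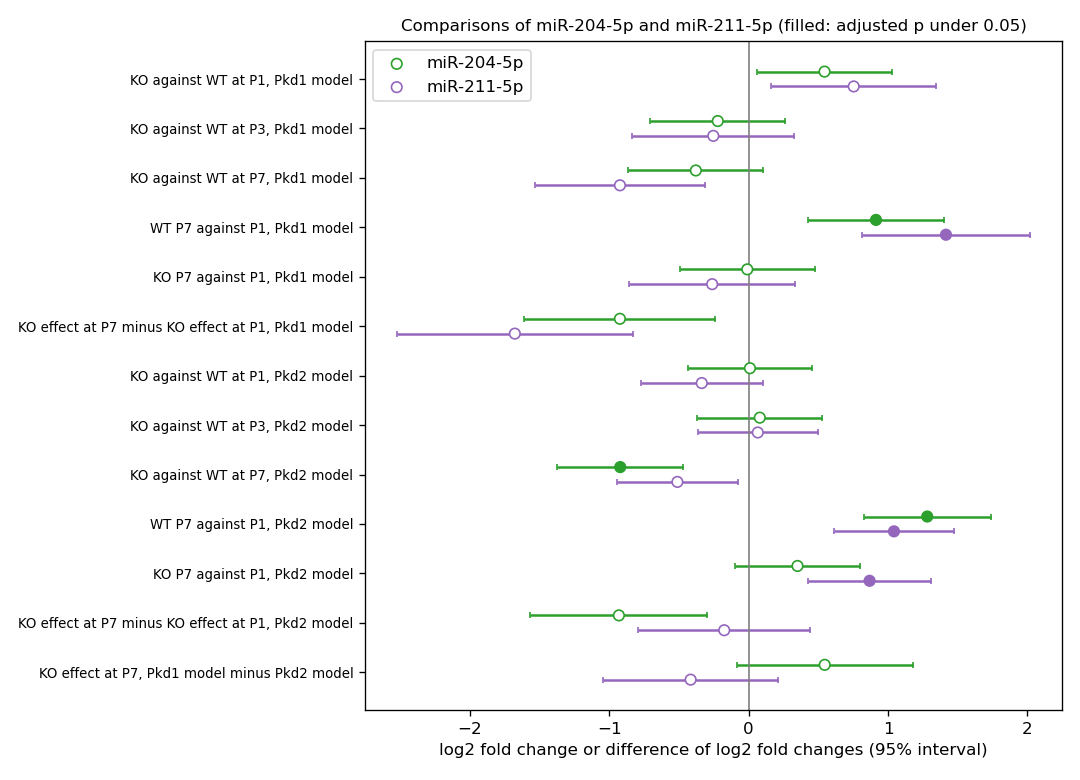
Log2 fold changes of miR-204-5p (green) and miR-211-5p (purple) in the comparisons of KO with WT and of P7 with P1, and differences between such fold changes, with 95% intervals. Filled dots have an adjusted p under 0.05, and for miR-204-5p these are the rise in WT of both models, 0.91 and 1.28, and the fall of -0.92 in Pkd2 KO at P7.

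Whether the KO effect differed between P7 and P1 was tested as an interaction. For Pkd1 mice it was -0.92 for miR-204-5p (SE 0.32, edgeR adjusted p = 0.366). For miR-211-5p it was -1.68 (SE 0.40, edgeR adjusted p = 0.142), in 3rd place by p among 706 miRNAs. By edgeR neither was called, 2 had an unadjusted p under 0.05, as did 12% of all miRNAs, and 0.142% of all miRNAs were called, whereas DESeq2 called 1, miR-211-5p, at -1.61 (DESeq2 adjusted p = 0.0399). Without the library with muscle miRNAs, miR-211-5p was also called, at -1.91 (edgeR adjusted p = 0.0441), and miR-204-5p was at -0.97 (edgeR adjusted p = 0.235). For Pkd2 mice the interaction was -0.93 for miR-204-5p (SE 0.30, edgeR adjusted p = 0.148) and -0.17 for miR-211-5p (SE 0.29, edgeR adjusted p = 0.833). No member was called there by edgeR or DESeq2, 1 had an unadjusted p under 0.05, as did 16.9% of all miRNAs, and 0.536% of all miRNAs were called. Without the library with the liver miRNA they were -0.87 and -0.30 (edgeR adjusted p = 0.358 and 0.788). These interactions share their libraries with the comparisons above.

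The KO effects at P7 were not shown to differ between the models. Pkd1 minus Pkd2 was 0.55 for miR-204-5p (SE 0.31, 95% interval -0.086 to 1.18, edgeR adjusted p = 0.466). It was -0.42 for miR-211-5p (SE 0.31, 95% interval -1.04 to 0.21, edgeR adjusted p = 0.571). By edgeR and by DESeq2 no member was called and none had an unadjusted p under 0.05 by edgeR, as 12% of all miRNAs had, and 0.387% of all miRNAs were called.

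The ratio of the paralogs is taken within a library and needs no scaling. miR-211-5p had 1.70 to 5.16 reads per 1000 reads of miR-204-5p, with a median of 3.27 in Pkd1 and 2.46 in Pkd2 mice. At P7 the ratio in Pkd1 mice was 5.16, 4.76 and 3.38 in WT and 2.39, 2.77 and 3.78 in KO. One KO library lay above the lowest WT library, and the KO ratio was 0.671 of the WT ratio (two-sided exact permutation test, p = 0.2). At the same age in Pkd2 mice it was 3.12, 1.70 and 2.38 in WT and 2.40, 3.12 and 4.33 in KO, and KO was 1.37 times WT (two-sided exact permutation test, p = 0.3). The fold changes of the other 4 comparisons were 0.787 to 1.23. With 3 libraries against 3 the smallest p possible was 0.1, and over the 6 comparisons the adjusted values were 0.4 to 1. Counting error alone was wide: the first of these WT libraries had 31 reads of miR-211-5p, and its exact 95% binomial interval ran from 3.50 to 7.33 per 1000. Such intervals cover counting error only.

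The arms of miR-204 were very unequal. Summed over Pkd1 mice, 58 reads of miR-204-3p stood against 217834 of miR-204-5p, and over Pkd2 mice 256 against 335960. The 3p arm was therefore 0.266 of 1000 miR-204 reads in Pkd1 mice (exact 95% binomial interval 0.202 to 0.344) and 0.761 in Pkd2 mice (0.671 to 0.861). These intervals cover the counting error of pooled reads only and leave out the spread between libraries. By library the share was 0 to 0.834 with a median of 0.227 in Pkd1 mice, and 0.145 to 1.82 with a median of 0.684 in Pkd2 mice. The ranges overlapped, and the models were not compared by a test. The log2 ratio of 5p to 3p reads could be taken in every library for 4 of the 6 comparisons of KO with WT. KO minus WT was 0.46 for Pkd1 at P3, and -0.55, -0.15 and -0.96 for Pkd2 at P1, P3 and P7 (two-sided exact permutation tests, p = 0.6, 0.2, 0.7 and 0.3, adjusted over 4 to 0.6 and 0.7). Single libraries moved these values: without Pkd2 P7 WT replicate 1, which had 2 reads of miR-204-3p, the difference at P7 was -0.25, and without Pkd1 P3 WT replicate 2 that of Pkd1 at P3 was 0.0085.

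**Figure D4:**
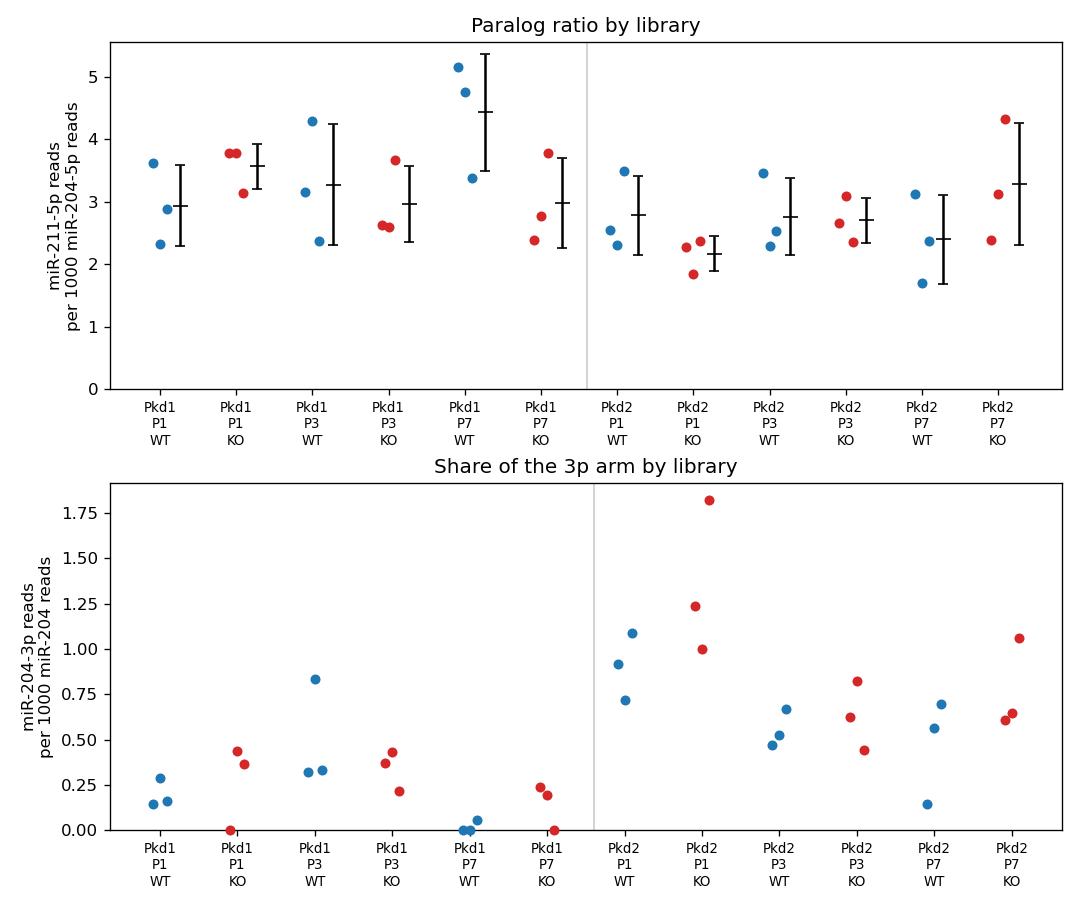
Upper panel, reads of miR-211-5p per 1000 reads of miR-204-5p in each library by group, with the mean ± SD of 3 libraries in black. Lower panel, reads of miR-204-3p per 1000 reads of both arms, with medians of 0.227 in Pkd1 and 0.684 in Pkd2 libraries (blue, WT and red, KO).

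The miRNAs whose level followed miR-204-5p most closely were sought among 153 others with a mean of at least 100 CPM, by Pearson's r of log2 CPM over 36 libraries after each model's mean was removed. The closest was miR-192-5p, an abundant miRNA of kidney tubules and gut, with r = 0.90. Then came miR-27b-3p at 0.87, miR-26b-5p at 0.84, miR-101a-3p at 0.84 and miR-340-5p at 0.83. For miR-26b-5p the value fell to 0.49 without removal of the model means. miR-211-5p itself had r = 0.78 with miR-204-5p, and 8 of the 153 were closer. With miR-211-5p, miR-378c had r = 0.78, and miR-204-5p came next to it. The next non-members were miR-192-5p at 0.75, miR-26b-5p at 0.73, miR-101a-3p at 0.71 and miR-378a-3p at 0.71. Without removal of the model means, miR-26b-5p was at 0.19. These libraries share age, normalisation and the same few abundant miRNAs, so the values are descriptions of likeness. miR-204-3p, with its few reads, had r = -0.022 with the 5p arm of its own hairpin.

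miRNAs known from kidney tubules moved beside miR-204-5p in some comparisons and not in others. The list held miR-192-5p, miR-194-5p, miR-215-5p, miR-802-5p and miR-30a-5p. Of these 5, 3 rose from P1 to P7 in Pkd1 WT and 4 in Pkd2 WT kidneys, with median log2 fold changes of 1.56 and 1.43. In Pkd2 WT kidneys miR-215-5p went the other way, at -2.42 (SE 1.08), and was not called (edgeR adjusted p = 0.107). In Pkd2 KO kidneys at P7, 3 of 5 fell and none rose, with a median of -0.93, against 0.023 over all miRNAs. Those that fell were miR-192-5p, by -1.13 (SE 0.34, edgeR adjusted p = 0.0392), miR-194-5p, by -0.95 (SE 0.21, edgeR adjusted p = 0.0147), and miR-802-5p, by -0.93 (SE 0.27, edgeR adjusted p = 0.0314). The sum of all 5 of the list was 76127 to 83820 CPM in the WT libraries and 40521 to 79500 CPM in the KO libraries. By library the order was not the same: KO replicates 1, 2 and 3 had sums of 50462, 79500 and 40521 CPM beside 657, 580 and 399.6 CPM of miR-204-5p. KO replicate 2 was thus within the WT range of the sum and below all WT libraries in miR-204-5p. The most-read miRNA of the list was miR-30a-5p, with up to 1638160 reads in a library, and it was not called here (-0.25, SE 0.23, edgeR adjusted p = 0.53). The sum therefore need not follow the miRNAs of the list that fell. For Pkd1 mice at P7 the sum was 89128 to 96928 CPM in WT and 62305 to 77053 CPM in KO. All 5 had negative fold changes there, with a median of -0.40, and 0 of 5 were called by edgeR or reached an unadjusted p under 0.05. In KO kidneys from P1 to P7, 2 of the 5 rose in Pkd1 mice (median 0.51) and 4 in Pkd2 mice (median 1.00), where miR-204-5p was not called. The fold changes of miR-215-5p were negative in these KO kidneys, -0.84 in Pkd1 and -1.87 in Pkd2 mice, and not called by edgeR. At P1 in Pkd2 mice all 5 had negative fold changes (median -0.61, 0 called by edgeR, 2 with an unadjusted p under 0.05), and their sum was 22704 to 34717 CPM in KO and 37707 to 42736 CPM in WT, while miR-204-5p overlapped. What part the tubule content of the kidneys had in the levels of miR-204-5p was not tested.

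miRNAs of other cell types were read at P7 as well. Of the 5 epithelial miRNAs that the collecting duct also makes, 2 rose in Pkd2 KO kidneys, miR-141-3p by 0.82 and miR-200c-3p by 0.87 on the log2 scale (edgeR adjusted p = 0.0163 and 0.0175). The other 3 had negative fold changes and were not called: miR-200a-3p at -0.12, miR-200b-3p at -0.17 and miR-429-3p at -0.31. The sum of the 5 was 6040 to 7461 CPM in WT and 5936 to 6326 CPM in KO. Of the 5 miRNAs listed as neural and retinal, 2 rose in each model, miR-182-5p and miR-183-5p. The sum of this list was 4413 to 5536 CPM in WT and 8100 to 15877 CPM in KO of the Pkd2 model, opposite in direction to miR-204-5p. Its most-read member was miR-182-5p, with up to 268104 reads in a library, against at most 37827 for miR-183-5p. All 5 had positive fold changes in both models. By in situ hybridisation the authors saw miR-182-5p in cyst-lining epithelium of Pkd1 KO kidneys. Which cells the rise of this list came from was not tested. None of the miRNAs of endothelium and smooth muscle, mesenchyme, red blood cells, leukocytes, muscle or liver was called in KO against WT at P7 in either model (edgeR), and 0 of 19 in Pkd1 and 7 of 19 in Pkd2 had an unadjusted p under 0.05. Over all miRNAs such a p was found for 10.2% in Pkd1. That share is not given here for Pkd2, where 12.6% passed the adjusted threshold, which is stricter. The 7 of 19 therefore have no like share beside them. In Pkd2 mice the sum of the 3 red blood cell miRNAs was 2211 to 2681 CPM in WT and 3447 to 5535 CPM in KO, and that of the 4 muscle miRNAs 18.4 to 19.3 CPM in WT and 26.4 to 105 CPM in KO. The 4 leukocyte miRNAs summed to 315 to 440.1 CPM in WT and 369 to 516 CPM in KO. Their part in the fall of miR-204-5p was not tested. Of all listed miRNAs, 3 were at 0 in some libraries: miR-206-3p in 5, miR-499-5p in 3 and miR-124-3p in 5. From P1 to P7 in WT kidneys, 2 of the 5 epithelial miRNAs rose in Pkd1 and 4 in Pkd2 mice. Their sum was 2266 to 3272 CPM at P1 and 3394 to 5017 CPM at P7 in Pkd1 WT, and 3950.1 to 4457 and 6040 to 7461 CPM in Pkd2 WT. Of the 4 miRNAs of endothelium and smooth muscle, 2 rose in Pkd1 and 1 in Pkd2 mice. Their sum was 37054 to 47453 CPM at P1 and 55511 to 109851 CPM at P7 in Pkd1 WT, and 44939 to 49213 and 56206 to 89959 CPM in Pkd2 WT. Of the 3 red blood cell miRNAs, miR-144-3p rose in Pkd1 WT, by 2.02 on the log2 scale (edgeR adjusted p = 0.0148). One of 3 mesenchyme miRNAs fell in Pkd2 WT. With age in WT kidneys of the Pkd1 model, all 4 leukocyte miRNAs rose and all 4 muscle miRNAs fell, the latter with 1 library at P1 holding most of the reads. In Pkd2 WT kidneys 1 of 4 leukocyte miRNAs rose and none of the 4 muscle miRNAs was called. There miR-122-5p fell by 5.72 on the log2 scale (edgeR adjusted p = 0.00913), with 1 library at P1 holding most of it. Replicates 1, 2 and 3 had 10.6, 9.04 and 274 CPM at P1, and P7 had 0.851 to 2.96 CPM. The part of these cell types in the rise of the members with age was not tested.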

How the data were processed

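Small-RNA sequencing was carried out on 36 kidney libraries on an Illumina HiSeq2000. The authors trimmed the 3′ adaptor, kept reads longer than 17 bases and assigned them with miRDeep2 to the mouse genome (mm10) and the hairpins and mature miRNAs of miRBase. The submitters' processing notes also list CASAVA 1.8.2 and HTSeq. The deposited values were whole, unnormalised counts in 2061 entries. Where a mature miRNA had entries from several hairpins, the entry with the most reads was kept, which left 1915. Each model was fitted on its 18 libraries with edgeR 4.0.16 in R 4.3.3 (TMM, quasi-likelihood test, Benjamini-Hochberg adjustment, threshold 0.05), with miRNAs of at least 10 counts in at least 3 libraries, which left 706 and 746, and both models together on 775. The edgeR test was checked on simulated counts with the same spread for all miRNAs. Their composition was the same in all libraries apart from the changes put in, so the dependence on scaling was not checked by them. Ratios were compared with exact permutation tests (scipy 1.17.1). Alternatives were DESeq2 1.42.0, other scalings, no filter, a fit of the compared groups alone, a miR-10 covariate, a replicate block, summed hairpin entries, and omission of single libraries. Members, comparisons, marker lists and the rule for named miRNAs (members, the 5 most alike and marker lists) were chosen with earlier results of these data known.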

Additional observations from a re-analysis of the deposited data

Results flagged for a closer look

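At P1, miR-211-5p moved in opposite ways in the 2 models. Every KO library was above every WT library in the Pkd1 model (log2 fold change 0.75) and below every WT library in the Pkd2 model (-0.34). Of all miRNAs tested, 7.65% were wholly higher in KO in the Pkd1 model and 9.12% wholly lower in the Pkd2 model. The item was flagged by a rule that looks for such opposite separation. The fold changes thus differed by 1.09 between models, neither passed the adjustment on its own, and the difference was not tested. The libraries of these 4 groups held 8 to 61 reads of miR-211-5p. Without Pkd1 P1 WT replicate 1 the Pkd1 value was 0.99, and without Pkd2 P1 WT replicate 3 the Pkd2 value was -0.20.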

How the results depend on the processing

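Of 580 values recomputed under alternatives, 541 kept their direction and their side of the threshold. With library totals alone the calls were lost for the WT rise with age of miR-204-5p (0.30 and 0.59) and miR-211-5p (0.68 and 0.31) in the Pkd1 and Pkd2 models. The fall of miR-204-5p in Pkd2 KO at P7 kept its size (-0.93) and lost its call. The same scaling turned miR-204-3p in Pkd2 WT (-0.13) and both 5p miRNAs in Pkd2 KO with age (-0.56 and -0.081). Fitting the compared groups alone, which leaves fewer libraries to estimate the spread, lost the WT rise in the Pkd1 model (0.88 and 1.39), the Pkd2 fall at P7 (-0.89) and the rise of miR-211-5p in Pkd2 KO (0.93), which was also lost with no filter (0.85). Calls were gained for the miR-211-5p interaction in the Pkd1 model with DESeq2 (-1.61) and for the rise of miR-204-5p in Pkd2 KO with the miR-10 covariate (0.51). Values near 0 changed sign: miR-204-5p in Pkd1 KO with age (0.012 with no filter, 0.20 with the miR-10 covariate, 0.023 with hairpin entries summed) and miR-204-5p at P1 in the Pkd2 model (-0.017 with DESeq2 size factors, DESeq2 and the covariate).

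When single libraries were left out, miR-204-5p in Pkd1 KO with age ran from -0.070 to 0.088, at P1 in the Pkd2 model from -0.046 to 0.093, at P3 in the Pkd2 model from -0.075 to 0.22, and at P7 in the Pkd2 model from -1.08 to -0.76. At P3 in the Pkd2 model miR-204-3p ran from -0.082 to 0.39 and miR-211-5p from -0.0058 to 0.15. The miR-211-5p interaction in the Pkd1 model ran from -1.91 to -1.48. The arm ratio ran from 0.0085 to 0.69 at P3 in the Pkd1 model, and from -0.75 to -0.31, -0.38 to 0.064 and -1.39 to -0.25 at P1, P3 and P7 in the Pkd2 model. At P3 the paralog ratio ran from -0.33 to 0.098 in the Pkd1 and -0.14 to 0.16 in the Pkd2 model.

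Replicate numbers were not treated as pairs. Same-numbered libraries of WT and KO had deviations correlated from -0.48 to 0.51 over 18 pairs, 7 of them over 0.1. In 4 of the 18 the same-numbered libraries matched each other best. With 3 libraries in a group these values cannot decide whether the libraries were paired. With a replicate block the Pkd2 fall of miR-204-5p at P7 was -0.94 (edgeR adjusted p = 0.0412), and the block changed no call. Beyond these values, the cause of the changes was not tested. The reads of miR-211-5p and above all of miR-204-3p were too few for small differences to be detected.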
